A study of Homo sapiens with 16 samples.

Results

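The interferon regulatory factors (IRFs) were examined in RNA-seq of leukaemia cell lines treated with lipid nanoparticles (LNPs) loaded with siRNA. The members were taken by gene name: IRF1, IRF2, IRF3, IRF4, IRF5, IRF7, IRF8 and IRF9, which are 8 of the 60357 genes in the count tables.

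IRFs are transcription factors that share an amino-terminal DNA-binding domain and bind GAAA repeats in the promoters of interferon-stimulated genes. IRF3, IRF5 and IRF7 are latent in the cytoplasm and are phosphorylated downstream of nucleic acid and Toll-like receptors, after which they induce interferon genes. IRF9 joins STAT2 in the complex ISGF3, which acts downstream of the type I and type III interferon receptors. IRF1 is an activator induced by interferon gamma, and IRF2 competes with it for the same DNA. IRF4 and IRF8 are largely restricted to blood cells, bind DNA with partners such as SPI1 (PU.1), and direct lymphoid (IRF4) and monocyte and dendritic cell (IRF8) development.

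Kasumi-1 and SKNO-1 are human acute myeloid leukaemia lines that carry the t(8;21) translocation, whose fusion gene RUNX1/ETO joins RUNX1 to RUNX1T1 (also called ETO). All cells received LNPs at 2 µg/ml for 24 h and were harvested on day 3. Per line, 3 libraries are labelled siMM-mod, a modified mismatch control siRNA (genotype label WT), and 3 are labelled siRE-mod, the modified siRNA against the fusion site (genotype label RUNX1/ETO knockdown), so that all 12 received LNPs and none is untreated. Each line is a single established line, and SKNO-1 was grown with GM-CSF. The counts on genes ranged from 60559466 to 147990959 per library, with a median of 89160101.

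The targeted gene was checked first, through RUNX1T1, which shares its exons with the fusion transcript. All values below are CPM, the counts scaled by library size after TMM normalization, unless stated otherwise. RUNX1T1 was at 296, 92.7 and 161 CPM in the Kasumi-1 libraries labelled siMM-mod (replicates 1, 2 and 3) and at 44.3, 159 and 37.2 CPM in the siRE-mod ones. The SKNO-1 values were 329, 297 and 127 CPM in the libraries labelled siMM-mod and at 123, 164 and 40.4 CPM in those labelled siRE-mod. In both lines the labelled groups overlapped, and RUNX1T1 in Kasumi-1 siRE-mod replicate 2 was higher than in Kasumi-1 siMM-mod replicate 2.

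The stem and progenitor antigen CD34 divided the libraries across both labels. It lay between 117 and 420 CPM in 6 libraries, which are called CD34-expressing here, and between 0.107 and 0.626 CPM in the other 6, which are called CD34-silent. IL5RA, the interleukin 5 receptor subunit, showed the opposite order, with at most 0.178 CPM in the CD34-expressing and 36.2 to 67.9 CPM in the CD34-silent libraries. Each of these sets was divided again at its largest gap in RUNX1T1. The CD34-expressing libraries with high RUNX1T1 (296 to 329 CPM) were Kasumi-1 siMM-mod replicate 1 and SKNO-1 siMM-mod replicates 1 and 2. Those with low RUNX1T1 (92.7 to 127 CPM) were Kasumi-1 siMM-mod replicate 2, SKNO-1 siMM-mod replicate 3 and SKNO-1 siRE-mod replicate 1. The CD34-silent libraries with high RUNX1T1 (159 to 164 CPM) were Kasumi-1 siMM-mod replicate 3, Kasumi-1 siRE-mod replicate 2 and SKNO-1 siRE-mod replicate 2. Those with low RUNX1T1 (37.2 to 44.3 CPM) were Kasumi-1 siRE-mod replicates 1 and 3 and SKNO-1 siRE-mod replicate 3. Over all genes with at least 600 reads, log2 CPM correlated at 0.976 to 0.996 between libraries of the same set of 3 and at 0.798 to 0.837 between CD34-expressing and CD34-silent libraries. These sets of libraries were defined from the data and hold both line labels, so they are given as values and ranges, with no test. Whether labels were exchanged between libraries was not tested, and every value given by line or siRNA label holds for the labels as deposited.

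The family members differed widely in level. Per kilobase of exon, the median level over the 12 libraries was 8.32 CPM per kb for IRF2, 7.05 for IRF3 and 6.32 for IRF5. The ranges of these 3 overlapped. IRF1 (1.47 CPM per kb) and IRF7 (1.44) followed at about the same level, with ranges of 1.13 to 2.55 and 0.939 to 1.86 CPM per kb. IRF8 ranged from 0 to 3.22 CPM per kb. IRF9 stood below these at 0.159 CPM per kb, and IRF4, at 0.0016, was close to absent.

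**Figure D1:**
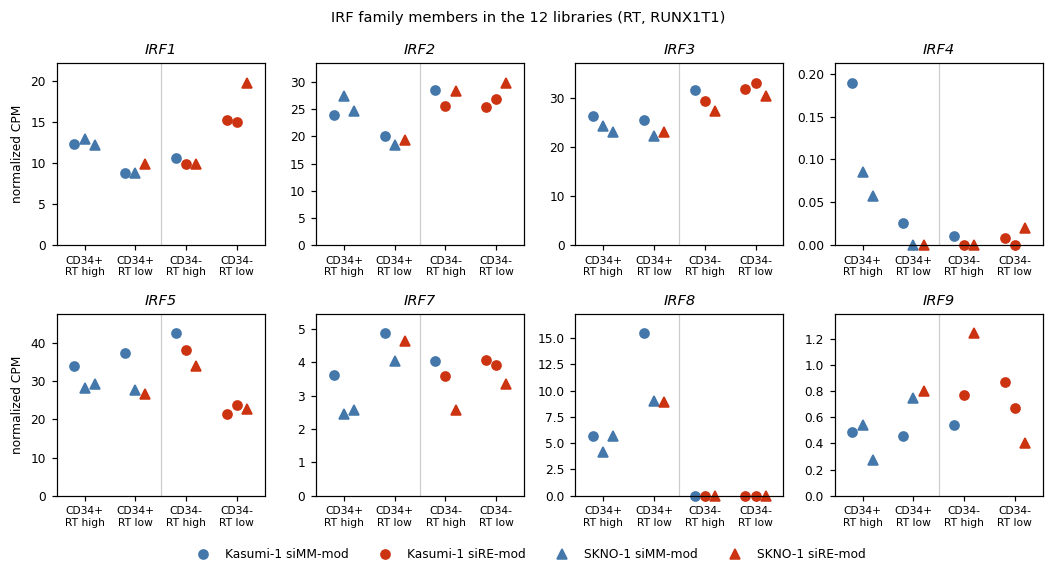
Normalized CPM of the 8 IRF members in the 12 libraries, each point 1 library, placed by CD34 (+, expressing; -, silent) and RUNX1T1 (RT) and marked by line and siRNA label; each panel has its own linear axis from 0. IRF8 lies at 0 in all 6 CD34-silent libraries, and the 3 CD34-silent libraries with low RUNX1T1 have the highest IRF1 and the lowest IRF5.

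IRF8 had the widest spread. This gene lies on chromosome 16 at chr16:85899162-85922606 (GRCh38, plus strand). In Kasumi-1 it was at 5.68, 15.4 and 0 CPM in siMM-mod replicates 1, 2 and 3 and at 0 CPM in all 3 siRE-mod replicates. In SKNO-1 it was at 4.16, 5.69 and 9.04 CPM in siMM-mod replicates 1, 2 and 3, and at 8.92, 0 and 0 CPM in the siRE-mod replicates. The 6 libraries with reads were the 6 that express CD34, whatever their line or siRNA label.

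Not 1 of the 651325780 reads on genes in the 6 CD34-silent libraries was assigned to IRF8, against 3497 in the CD34-expressing libraries. A count of 0 over these pooled libraries allows up to 3 counts, or 0.00434 CPM, so that IRF8 in the lowest CD34-expressing library was at least 959-fold higher. Intervals and limits of this kind cover counting error only. Few genes shared this pattern: of 12845 genes with at least 600 reads in the CD34-expressing libraries, 58 (0.452%) were at 0 in all 6 CD34-silent libraries. In bulk RNA, fewer cells of a type and less RNA per cell cannot be told apart.

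Among the CD34-expressing libraries, IRF8 was higher where RUNX1T1 was low. The 3 libraries with low RUNX1T1 had 8.92, 9.04 and 15.4 CPM and those with high RUNX1T1 4.16, 5.68 and 5.69 CPM. The ranges did not overlap under TMM, total-count or DESeq2 size-factor scaling, and the gap between them was 1.57-fold. Of the libraries labelled SKNO-1 siMM-mod, replicate 3, with low RUNX1T1, had 9.04 CPM and the others 4.16 and 5.69 CPM. These are part of the libraries just compared and are no separate evidence.

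The region around IRF8 was read in the same way. Within 1000 kb on either side, 30 genes including IRF8 had at least 50 counts, and 6 of them were at 0 in all CD34-silent libraries: IRF8, LINC02132, AC009108.4, AC009108.2, AC009154.1 and AC009154.2. Those other than IRF8 had 53 to 284 counts in the CD34-expressing libraries and passed the filter of 50 counts through these libraries alone. The share of all genes at 0 is not given for this filter, so the count of 6 is not read as a feature of the region. LINC02132, 12.7 kb downstream of IRF8, had 62 counts in the CD34-expressing libraries. FOXL1, a forkhead transcription factor gene 654 kb downstream, had 1060 counts in the CD34-expressing libraries and 1 in the CD34-silent libraries. AC009108.5, 633 kb downstream, had the opposite order, with 8 counts in the CD34-expressing and 60 in the CD34-silent libraries.

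Upstream of IRF8, no gene was at 0 in all CD34-silent libraries. The nearest of those upstream, COX4I1, a subunit of cytochrome c oxidase 92.1 kb away, was at 302 to 520 CPM in the CD34-expressing and 300 to 476 CPM in the CD34-silent libraries. EMC8, which encodes a subunit of the endoplasmic reticulum membrane protein complex, was at 15.5 to 23.0 CPM and 15.3 to 32.5 CPM. MTHFSD, 608 kb downstream, between the genes at 0, was likewise detected in both sets, at 12.7 to 14.6 CPM and 12.3 to 15.8 CPM.

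**Figure D2:**
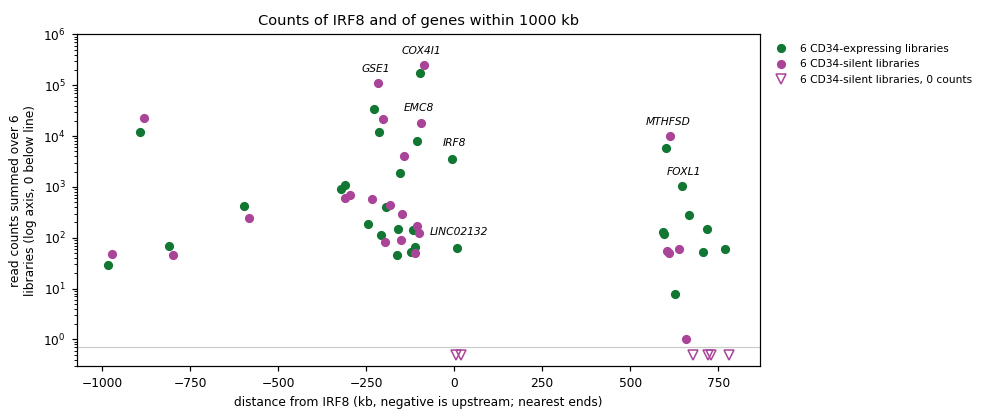
Read counts summed over the 6 CD34-expressing (green) and the 6 CD34-silent (purple) libraries for the 30 genes with at least 50 counts within 1000 kb of IRF8, against the distance to IRF8 in kb (the 2 sets are drawn side by side; log axis, open triangles below the grey line are counts of 0). COX4I1 and MTHFSD were counted in both sets, while IRF8, LINC02132 and 4 genes beyond FOXL1 were at 0 in the CD34-silent libraries.

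RefSeq promoter windows (GRCh38.p14, 250 bases before to 50 after a transcription start) were given for 5 of the 8 members: IRF1, IRF4, IRF5, IRF8 and IRF9. IRF2, IRF3 and IRF7 had no entry. Both strands of the windows were searched for 4 motifs: TGTGGT, the core bound by RUNX1 and by the fusion protein, TTCNNNGAA, the GAS element bound by STAT dimers, and the interferon response elements made of a pair of GAAA repeats, either 2 bases apart or 1 base apart (GAAANGAAA). Of 35116 promoter windows of this length in the table, 13.1% held the RUNX core, 7.66% the GAS element, 3.57% the repeats 2 bases apart and 3.12% GAAANGAAA. The windows of IRF4 held none of the 4, and no member's window held GAAA repeats 2 bases apart.

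The IRF8 window with matches lies at chr16:85902580-85902879. It belongs to a start 3668 bases downstream of the first base of IRF8 in the count tables, inside the gene as counted, and 141 of its 250 upstream bases lie in exons of that table. The matches, in capitals below, are a RUNX core 134 bases before the start (chr16:85902684-85902713, plus strand) and a GAAANGAAA element 117 bases before it (chr16:85902703-85902732, plus strand). They are shown because IRF8 was the member with the widest range and the motifs name the factor that was targeted and the family itself.
IRF8 RUNX core: ggagctgttcacTGTGGTtgtatctgcctg
IRF8 GAAANGAAA: gtatctgcctGAAAGGAAAgggcagatgaa

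IRF1 differed with RUNX1T1 in opposite directions in the CD34-expressing and CD34-silent libraries. This gene, at chr5:132481609-132490777 (minus strand), was at 12.3, 8.80 and 10.6 CPM in Kasumi-1 siMM-mod replicates 1 to 3 and at 15.3, 9.91 and 15.1 CPM in Kasumi-1 siRE-mod replicates 1 to 3. In SKNO-1 it was at 13.0, 12.2 and 8.82 CPM in siMM-mod replicates 1 to 3 and at 9.88, 9.85 and 19.9 CPM in siRE-mod replicates 1 to 3. Among the CD34-silent libraries the 3 with low RUNX1T1 lay at 15.1 to 19.9 CPM, above the 3 with high RUNX1T1 at 9.85 to 10.6 CPM. Among the CD34-expressing libraries the 3 with low RUNX1T1 lay at 8.80 to 9.88 CPM, below the 3 with high RUNX1T1 at 12.2 to 13.0 CPM. Neither pair of ranges overlapped under any of the 3 scalings.

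Reads of IRF1 carry an uncertainty, because C5orf56 and AC116366.3, on the opposite strand, overlap its exons. The larger of these overlaps covers 22.1% of its exon bases, and the gene concerned had 2866 counts. No source used here says whether the counting used strand. The 246 bases before its first exon in the count tables (chr5:132490778-132491023, printed 5′ to 3′ on the minus strand) hold a palindromic GAS element, in capitals, that begins 124 bases before the RefSeq start. They are printed because interferon gamma is a known inducer of IRF1.
IRF1 promoter: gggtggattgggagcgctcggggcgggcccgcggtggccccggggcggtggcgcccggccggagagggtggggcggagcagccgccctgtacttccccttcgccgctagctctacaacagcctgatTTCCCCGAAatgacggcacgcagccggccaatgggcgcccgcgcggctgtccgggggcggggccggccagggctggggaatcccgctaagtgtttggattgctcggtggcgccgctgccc

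IRF5 was lower in the CD34-silent libraries with low RUNX1T1. This gene, at chr7:128937457-128950038 (plus strand), encodes a factor that drives inflammatory cytokine genes downstream of Toll-like receptors. It was at 34.1, 37.4 and 42.5 CPM in Kasumi-1 siMM-mod replicates 1 to 3 and at 21.4, 38.1 and 23.8 CPM in the siRE-mod replicates. In SKNO-1 it was at 28.1, 29.2 and 27.6 CPM in the siMM-mod replicates and at 26.6, 34.1 and 22.8 CPM in the siRE-mod replicates.

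In the CD34-silent libraries IRF5 was at 21.4 to 23.8 CPM with low RUNX1T1 and at 34.1 to 42.5 CPM with high RUNX1T1. The gap was 1.43-fold and was present under all 3 scalings. In the CD34-expressing libraries the ranges overlapped, at 26.6 to 37.4 and 28.1 to 34.1 CPM. Of the 4 RefSeq starts of IRF5, the window of the third held matches: a RUNX core on the minus strand 183 bases before the start (chr7:128940475-128940504) and a GAAANGAAA element on the minus strand 33 bases before it (chr7:128940627-128940656), in capitals as they read on the plus strand.
IRF5 RUNX core, reversed: cccatgttataaACCACActaaatgcacaa
IRF5 GAAANGAAA, reversed: gtctagccacTTTCGTTTCccctggggccg

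IRF2 and IRF3 had the smallest spread over the 12 libraries, 0.22 and 0.20 on the log2 scale. IRF2, the competitor of IRF1, lies at chr4:184387729-184474550 (minus strand). It was at 23.9, 20.0 and 28.5 CPM in Kasumi-1 siMM-mod, 25.5, 25.6 and 26.9 CPM in Kasumi-1 siRE-mod, 27.5, 24.7 and 18.5 CPM in SKNO-1 siMM-mod, and 19.2, 28.4 and 29.9 CPM in SKNO-1 siRE-mod replicates 1 to 3. The 3 lowest values were those of the CD34-expressing libraries with low RUNX1T1 (18.5 to 20.0 CPM), below those with high RUNX1T1 (23.9 to 27.5 CPM) under all 3 scalings. Under total-count scaling only, IRF2 was also higher in all CD34-silent than in all CD34-expressing libraries, and higher in the CD34-silent libraries with low than in those with high RUNX1T1. Total-count scaling moved the median of all genes in the CD34 comparison to 0.23 on the log2 scale, against 0.03 under TMM.

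IRF3, which lies at chr19:49659569-49665875 (minus strand) and is activated by the kinase TBK1, was the member with values that were higher in all CD34-silent libraries. It was at 26.2, 25.5 and 31.5 CPM in Kasumi-1 siMM-mod and at 31.9, 29.3 and 33.1 CPM in Kasumi-1 siRE-mod replicates 1 to 3. It was at 24.2, 23.0 and 22.1 CPM in SKNO-1 siMM-mod and at 23.1, 27.3 and 30.4 CPM in SKNO-1 siRE-mod replicates 1 to 3. The CD34-silent libraries lay at 27.3 to 33.1 CPM and the CD34-expressing at 22.1 to 26.2 CPM under TMM, with the same order under the other scalings.

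The gap in IRF3 was 1.04-fold, within counting error at its edge: the exact 95% Poisson interval was 26.3 to 28.4 CPM for the lowest CD34-silent library and 25.03 to 27.4 CPM for the highest CD34-expressing library. BCL2L12, with 37556 counts, overlaps 19.3% of the exon bases of IRF3 on the opposite strand.

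IRF7, the factor that amplifies interferon alpha production, lies at chr11:612553-615983 (minus strand). It was at 3.63, 4.87 and 4.04 CPM in Kasumi-1 siMM-mod, 4.08, 3.60 and 3.91 CPM in Kasumi-1 siRE-mod, 2.45, 2.58 and 4.04 CPM in SKNO-1 siMM-mod, and 4.65, 2.56 and 3.34 CPM in SKNO-1 siRE-mod replicates 1 to 3. Among the CD34-expressing libraries it was at 4.04 to 4.87 CPM with low RUNX1T1 and at 2.45 to 3.63 CPM with high RUNX1T1. This order held under all 3 scalings, but the gap was 1.11-fold, within counting error at its edge. The exact Poisson interval of SKNO-1 siMM-mod replicate 3, with low RUNX1T1, was 3.57 to 4.57 CPM. That of Kasumi-1 siMM-mod replicate 1, with high RUNX1T1, was 3.21 to 4.09 CPM. Among the CD34-silent libraries the IRF7 ranges with low and high RUNX1T1, 3.34 to 4.08 and 2.56 to 4.04 CPM, overlapped.

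IRF9 and IRF4 were low. IRF9, at chr14:24161053-24166565 (plus strand), had 19 to 121 counts per library, or 0.274 to 1.24 CPM, and its ranges overlapped in the CD34 comparison and in both RUNX1T1 comparisons. AL136295.5 overlaps 45.5% of its exon bases on the same strand, so its counts are uncertain. In the RefSeq window of IRF9, a GAS element was found 63 bases before the start (chr14:24161192-24161221, plus strand). This start lies 212 bases inside the gene as counted, and 212 of the 250 bases before it lie in counted exons. The element is shown as the match in that window to the motifs searched.
IRF9 GAS: accacgtgatTTCTGGGAAaaggccctccc

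IRF4, at chr6:391752-411443 (plus strand), had 31 counts in all. Of these, 14 were in Kasumi-1 siMM-mod replicate 1, 6 in SKNO-1 siMM-mod replicate 1 and 4 in SKNO-1 siMM-mod replicate 2, which are the 3 CD34-expressing libraries with high RUNX1T1. The remaining libraries had at most 3 counts each, and 5 had 0, which allows up to 0.0468 CPM in the shallowest of them. No comparison between the CD34 or RUNX1T1 sets was made for IRF4 at this depth.

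How often members separated between sets was set beside all genes. Between CD34-silent and CD34-expressing libraries, the ranges of 2 of the 7 members with at least 600 reads did not overlap (IRF3 higher, IRF8 lower in the CD34-silent), while 33.1% of 15863 genes did not overlap. Between low and high RUNX1T1 in the CD34-expressing libraries, 4 of 6 members did not overlap (IRF7 and IRF8 higher, IRF1 and IRF2 lower with low RUNX1T1), against 41.0% of 12845 genes. In the CD34-silent libraries, 2 of 5 members did not overlap (IRF1 higher, IRF5 lower), against 46.4% of 13783 genes. Separation of this kind was therefore common among all genes, and the shares of the members are read only as a description.

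The comparison that the labels imply, siRE-mod against siMM-mod, was tested with edgeR's quasi-likelihood test in each line, with Benjamini-Hochberg adjustment over all genes tested. Of the 6 members that passed the filter of 600 reads in each line (IRF1, IRF2, IRF3, IRF5, IRF7 and IRF8), 0 passed in Kasumi-1 and 0 passed in SKNO-1. Over all genes 0.0% were called in each line, while 2435 of 13608 genes in Kasumi-1 and 1455 of 13628 in SKNO-1 had an unadjusted p below 0.05. DESeq2 called 8.5% of the genes in Kasumi-1 and 2.73% in SKNO-1. Of the members, DESeq2 called IRF8 in Kasumi-1 (adjusted p = 0.031) and none in SKNO-1.

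In Kasumi-1, IRF1 was at 13.4 ± 3.04 CPM (SD, n = 3) in the libraries labelled siRE-mod and 10.6 ± 1.76 CPM in those labelled siMM-mod, a log2 fold change of 0.35 (SE 0.25) with an edgeR adjusted p of 0.463. IRF5 was at 27.8 ± 9.04 against 38.0 ± 4.25 CPM, a log2 fold change of -0.45 (SE 0.25, edgeR adjusted p = 0.371). For IRF2, IRF3 and IRF7 the log2 fold changes were 0.11, 0.19 and -0.11. In SKNO-1, IRF1 was at 13.2 ± 5.77 against 11.3 ± 2.22 CPM (log2 fold change 0.21, SE 0.35, edgeR adjusted p = 0.855), and IRF2, IRF3, IRF5 and IRF7 had log2 fold changes of 0.13, 0.22, -0.03 and 0.21. All 6 members overlapped between the labelled groups in each line, whereas 21.6% of the genes tested in Kasumi-1 and 12.1% in SKNO-1 did not.

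For IRF8, Kasumi-1 had 7.04 ± 7.81 CPM in siMM-mod and 0 counts in every siRE-mod library (edgeR adjusted p = 0.255). SKNO-1 had 6.30 ± 2.49 CPM in siMM-mod and 2.97 ± 5.15 CPM in siRE-mod (edgeR adjusted p = 0.892). The call depended on single libraries: without Kasumi-1 siMM-mod replicate 3, the CD34-silent library among its label, the edgeR adjusted p in Kasumi-1 was 0.004, and 32.2% of all genes were then called. Without SKNO-1 siRE-mod replicate 1, the CD34-expressing library among its label, it was 0.002 in SKNO-1, where 19.3% of all genes were then called. With these libraries left out, the labels and the CD34 sets of the line coincide and their parts in the result cannot be told apart. The difference between the lines, tested as an interaction over the 12 libraries, passed for 0 of the 7 members tested (edgeR adjusted p = 1.00 for each, 106 of 15863 genes at an unadjusted p below 0.05), and DESeq2 called IRF8 (adjusted p = 0.001) among 0.801% of all genes.

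IRF9 and IRF4 did not reach 600 reads in either line. In Kasumi-1, IRF9 was at 0.667 to 0.866 CPM in siRE-mod and at 0.458 to 0.541 CPM in siMM-mod, without overlap, on 391 counts. This gap was within counting error at its edge. The exact Poisson interval was 0.514 to 0.852 CPM for siRE-mod replicate 3 and 0.401 to 0.713 CPM for siMM-mod replicate 3. The share of all genes without overlap is not given at this depth. In SKNO-1 the IRF9 ranges of 0.404 to 1.24 and 0.274 to 0.749 CPM overlapped. On 18 counts, the IRF4 ranges did not overlap in Kasumi-1 either, which is not read as a difference.

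**Figure D3:**
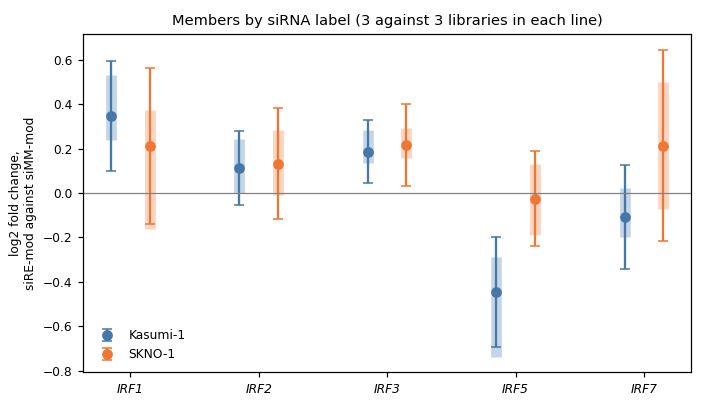
Log2 fold change of 5 members between libraries labelled siRE-mod and siMM-mod in Kasumi-1 (blue) and SKNO-1 (orange), as points with 1 SE derived from edgeR's F statistic. The pale bars give the range when each of the 6 libraries of a line is left out in turn. No member was called, and the pale bars of IRF1, IRF2, IRF5 and IRF7 in SKNO-1 and of IRF7 in Kasumi-1 cross 0; IRF8 is left out because its fitted fold change rests on counts of 0.

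The genes that act with the IRFs were counted in 7 lists. By label, 0 genes of any list were called in either line or for their difference. In the receptor and STAT list, 10 of 11 genes had at least 600 reads, with a median log2 fold change of 0.25 (Kasumi-1) and 0.39 (SKNO-1), against 0.02 and 0.03 over all genes tested. The corresponding medians were -0.19 and 0.09 for the kinases and adaptors upstream of IRF3, IRF5 and IRF7, 0.17 and 0.43 for the DNA-binding partners and cofactors, and 0.21 and 0.18 for the negative regulators. They were 0.26 (11 genes tested) and 1.3 (9 genes) for target genes of IRF8 and IRF1. For target genes of ISGF3 they were -0.29 (6 genes) and -0.35 (5 genes), with a range in SKNO-1 from -0.58 (IFIT1) to 3.14 (RSAD2). The labelled groups of a line hold unlike numbers of CD34-silent libraries, so siRNA label and CD34 set cannot be told apart in these medians.

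Of the receptor and STAT list, 5 of 10 genes were higher in all CD34-silent than in all CD34-expressing libraries and 0 were lower, against 17.5% and 15.6% of all genes. IFNGR1, the ligand-binding chain of the interferon gamma receptor, was at 78.7 to 117 against 27.6 to 42.9 CPM. IFNAR1, IFNGR2 and JAK1 were also among the 5, of which JAK1 was lost under size-factor scaling.

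STAT2, the partner of IRF9 in ISGF3, did not separate by CD34. Within the CD34-expressing libraries it was at 54.1 to 61.1 CPM with low and at 43.9 to 49.3 CPM with high RUNX1T1. Within the CD34-silent libraries the order was the opposite, at 44.3 to 47.8 and 68.3 to 74.6 CPM. In that list 3 genes were higher and 3 lower with low RUNX1T1 among the CD34-expressing libraries, where 17.6% and 23.4% of all genes were. There were 2 higher and 2 lower among the CD34-silent libraries, where 24.0% and 22.3% of all genes were. The last counts were 5 higher and 1 lower under total-count and 1 higher and 3 lower under size-factor scaling. IFNLR1, the ligand-binding chain of the type III receptor, had 0 counts in all 12 libraries.

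Of the 14 kinases and adaptors, TBK1, the kinase of IRF3, was higher in the CD34-silent libraries (69.3 to 95.4 CPM against 44.5 to 50.5). IKBKE, the kinase related to TBK1, was lower there (14.1 to 27.8 against 28.8 to 43.9 CPM), as were MAVS, the adaptor of the RNA sensors, IRAK4 and CHUK. Under total-count scaling 2 genes were higher and 0 lower in this comparison. Under TMM, 17.5% of all genes were higher and 15.6% lower in it. Among the CD34-silent libraries 4 genes of the list were higher and 3 lower with low RUNX1T1 (7 and 2 under total-count scaling), against 24.0% and 22.3% of all genes. IRAK1, a kinase upstream of IRF5 and IRF7, was at 87.9 to 98.9 CPM with low and at 36.0 to 51.1 CPM with high RUNX1T1, and the adaptor TRAF3 was at 80.0 to 87.5 and 43.3 to 55.6 CPM. MYD88, the adaptor of most Toll-like receptors, was at 15.4 to 16.8 and 21.1 to 24.4 CPM. Among the CD34-expressing libraries 5 genes were higher and 2 lower with low RUNX1T1 (3 and 2 under total-count scaling), against 17.6% and 23.4% of all genes. STING1 (listed as TMEM173) was among those higher, at 69.1 to 103 against 40.9 to 44.7 CPM.

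Of the partners and cofactors, 10 of 14 genes had 600 reads. SPI1, the Ets factor PU.1 that binds DNA with IRF4 and IRF8, was higher with low RUNX1T1 in both sets: 114 to 189 against 76.2 to 92.4 CPM in the CD34-expressing, and 181 to 196 against 75.7 to 135 CPM in the CD34-silent libraries. IKZF1 (Ikaros) and IRF2BP2, a corepressor that binds IRF2, showed the same order in both sets. With low RUNX1T1, 4 genes of the list were higher and 1 lower in each set. Total-count scaling gave 3 higher and 1 lower in the CD34-expressing, and 4 and 0 in the CD34-silent libraries. Size-factor scaling gave 3 and 1 in the CD34-silent libraries. The shares over all genes were 17.6% higher and 23.4% lower in the CD34-expressing, and 24.0% and 22.3% in the CD34-silent libraries. By CD34, 3 genes were higher in the CD34-silent libraries (BATF, IKZF1 and CREBBP) and 1 was lower (TCF3, under TMM only), with 4 higher and 0 lower under total-count scaling. Over all genes, 17.5% were higher and 15.6% lower by CD34.

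Target genes of IRF8 and IRF1 were split between the sets. Of 12 with 600 reads, 7 were higher in the CD34-silent libraries (GBP2, CASP1, SOCS1, TAP1, PSMB9, CTSS and CST3) and 2 were lower (CSF1R and CYBB), under all 3 scalings. The shares over all genes were 17.5% higher and 15.6% lower. CYBB, the catalytic subunit of the phagocyte oxidase, was at 0.981 to 2.32 CPM in the CD34-expressing libraries, at 0 in the 3 CD34-silent libraries with high RUNX1T1 and at 0.177 to 0.469 CPM in those with low RUNX1T1. CSF1R, the receptor of macrophage colony-stimulating factor, was at 8.05 to 24.9 CPM in the CD34-expressing and 0.615 to 1.54 CPM in the CD34-silent libraries. GBP2, a guanylate-binding protein induced by interferon gamma, was at 15.5 to 34.3 CPM in the CD34-silent and at 0.579 to 1.18 CPM in the CD34-expressing libraries.

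Within the CD34-expressing libraries, 6 of 8 target genes were higher with low RUNX1T1. Among them were CYBB, NCF1, CSF1R, CIITA and CTSS, of which CTSS was lost under size-factor scaling. In the same comparison IRF8 was higher, while IRF1 was lower, at 8.80 to 9.88 against 12.2 to 13.0 CPM. Whether either factor acts on these genes was not tested. CASP1, a member of the list that was lower there, did not separate under total-count scaling. Of all genes 17.6% were higher and 23.4% lower in this comparison. NCF1, a cytosolic subunit of the phagocyte oxidase, was at 5.11 to 8.60 CPM with low and 2.86 to 4.01 CPM with high RUNX1T1, but its reads can be shared with near-identical pseudogenes and its counts are uncertain.

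Within the CD34-silent libraries IRF8 was at 0, and IRF1 was higher with low RUNX1T1. There, 3 of 11 target genes were higher with low RUNX1T1 (GBP2, SOCS1 and NCF1), against 24.0% of all genes. Another 5 were lower (CIITA, CTSS, PSMB9 and CSF1R among them), against 22.3% of all genes. CIITA, the master regulator of MHC class II genes, was at 7.04 to 7.49 CPM with low and at 41.6 to 51.7 CPM with high RUNX1T1. In the CD34-expressing libraries CIITA had the opposite order, at 22.6 to 27.0 and 9.18 to 11.6 CPM.

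Of the ISGF3 target genes, 7 of 12 had 600 reads. RSAD2 (viperin) was at 30.5 to 36.3 CPM in the CD34-silent libraries with high RUNX1T1, at 7.54 to 12.5 CPM in those with low RUNX1T1, and at 1.24 to 2.14 CPM in the CD34-expressing libraries. IFIT2, an RNA-binding antiviral protein, was lower in the CD34-silent libraries, at 1.24 to 3.72 against 4.73 to 7.73 CPM. By CD34, 2 genes were higher and 1 lower in the CD34-silent libraries (2 and 2 under the other scalings), against 17.5% and 15.6% of all genes. With low RUNX1T1, 2 were higher and 2 lower of 4 in the CD34-expressing libraries (2 and 1 under total-count scaling), against 17.6% and 23.4% of all genes. In the CD34-silent libraries 1 was higher and 3 lower of 6 (1 and 4 under the other scalings), against 24.0% and 22.3% of all genes.

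No interferon gene reached 600 reads. The 9 genes of this list summed to at most 0.251 CPM in any library, and IFNA1, IFNA2, IFNE and IFNG had 0 counts in all 12. Of 10 negative regulators, 4 were higher in the CD34-silent libraries (5 under total-count scaling) and PELI1, a ubiquitin ligase, was lower, against 17.5% and 15.6% of all genes. SOCS1, the inhibitor of JAK kinases, was at 0.0136 to 0.140 CPM in the CD34-expressing libraries, at 0.636 to 1.31 CPM in the CD34-silent libraries with high RUNX1T1 and at 3.04 to 4.59 CPM in those with low RUNX1T1. The phosphatase PTPN6 followed the same order in the CD34-silent libraries, at 217 to 259 and 450 to 533 CPM. With low RUNX1T1, 1 regulator was higher and 1 lower of 8 in the CD34-expressing libraries, against 17.6% and 23.4% of all genes. In the CD34-silent libraries 3 were higher and 1 lower of 8 (4 and 0 under total-count scaling), against 24.0% and 22.3% of all genes.

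**Figure D4:**
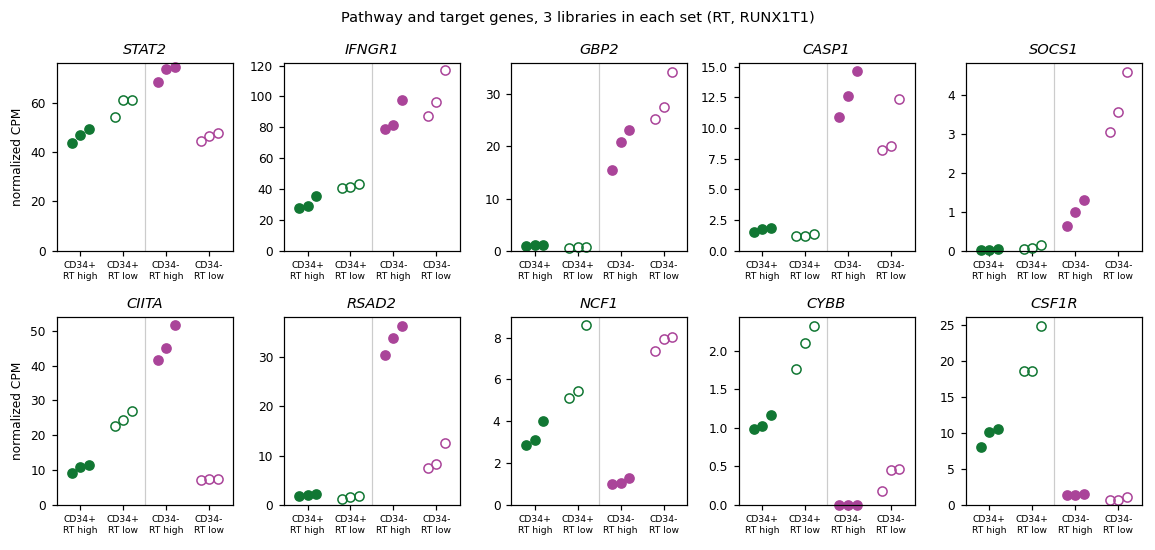
Normalized CPM of 10 genes of the receptor, target and regulator lists in the 4 sets of 3 libraries (CD34 + or -, RUNX1T1, RT, high or low), each point 1 library in ascending order within its set, on linear axes from 0. IFNGR1, GBP2, CASP1 and SOCS1 are higher in all CD34-silent libraries, CYBB and CSF1R are lower there, and CIITA has opposite orders by RUNX1T1 in the CD34-expressing and CD34-silent libraries.

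The genes whose pattern was most like that of a member were found by the root mean square difference of log2 CPM over the 12 libraries, each gene centred on its own mean, among about 10350 genes with a mean of at least 5 CPM. For IRF8 these were HOXD13 (0.27), RNF217 (0.46) and TMSB15B (0.57), against a spread of 4.24 of IRF8 itself. For IRF1 they were RRM2 (0.10), a subunit of ribonucleotide reductase, POLR3G (0.13) and PNO1 (0.13), against a spread of 0.35. For IRF5 they were PEX6 (0.10), GANAB (0.11) and MED12 (0.11), against a spread of 0.30. IRF2 was nearest to RABL3 (0.07), IRF3 to ARFGAP2 (0.07), IRF7 to MXD3 (0.16) and IRF9 to PDCD6 (0.20). Between members, IRF2 and IRF3 were closest (0.17), and IRF1 and IRF5 differed by 0.59. Because the libraries fall into sets, these values describe the sets and not single-gene relations.

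Markers of blood cell types moved with the sets and are given beside the IRF values. CD34 itself, which defined the sets, is left out of the counts here. Of the other 7 myeloblast markers, 6 were lower in the CD34-silent libraries, against 15.6% of all genes. The summed level of the list, with CD34 at no more than 420 CPM, was 2088 to 6541 CPM there and 13905 to 31490 CPM in the CD34-expressing libraries. Of 6 eosinophil and mast cell markers, 5 were higher in the CD34-silent libraries, against 17.5% of all genes. The sum of this list was 63.9 to 379 CPM there and 2.22 to 203 CPM in the CD34-expressing libraries. In each CD34 set this sum was higher with low RUNX1T1: 164 to 203 against 2.22 to 3.00 CPM, and 319 to 379 against 63.9 to 88.4 CPM. In the CD34-expressing libraries PRG2, an eosinophil granule protein, made up nearly all of it, at 156 to 193 CPM with low and 0.217 to 0.271 CPM with high RUNX1T1, while the mast cell tryptase TPSAB1 was at 0.401 to 0.484 and 0.927 to 1.10 CPM. In the CD34-silent libraries the peroxidase EPX had the opposite order to the sum, at 1.15 to 1.66 CPM with low and 2.62 to 3.31 CPM with high RUNX1T1. Among the markers of the lines that did not define the sets, KIT, MPO and RUNX1 were lower in the CD34-silent libraries (RUNX1 not under total-count scaling), IL5RA was higher, and CD33 overlapped.

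Of the cells in which IRF8 is known to be high, monocyte markers summed to 8.14 to 25.2 CPM in the CD34-expressing and 1.04 to 2.50 CPM in the CD34-silent libraries. In the CD34-expressing libraries nearly all of this sum was CSF1R, at 8.05 to 24.9 CPM. The monocyte marker VCAN had the opposite order, at 0.0297 to 0.166 CPM in the CD34-expressing and 0.289 to 0.920 CPM in the CD34-silent libraries. CD14 had 9 counts in all 12 libraries and FCN1 24. Plasmacytoid dendritic cell markers summed to 4.14 to 16.5 CPM, nearly all from IL3RA, CLEC4C was at 0 in all libraries and TCF4 had 15 counts. B cell markers summed to 10.9 to 33.4 CPM with MS4A1 at 0, T cell markers to at most 0.574 CPM and erythroid markers to at most 1.01 CPM. The part of these cell types in the IRF values was not tested.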

How the data were processed

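RNA was measured in the 12 in vitro libraries, 3 for each line and siRNA label. Per the methods and file headers, the authors trimmed reads (Trim Galore 0.6.5), aligned them to GRCh38 (STAR 2.7.10a) and deposited raw read counts over exons per gene, made with Subread 1.6.5 (methods) or Rsubread 1.32.4 under R 3.5.1 (headers). Strand setting and annotation release are not given in the sources used here. The deposited CPM equal the counts divided by their library total, and served as the total-count alternative; FPKM were not used. The in vivo libraries are not analysed here.

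Counts were tested with edgeR 4.0.16 (TMM, glmQLFit, glmQLFTest; R 4.3.3) by label within each line, and for the difference between lines over 12 libraries, with at least 600 reads in total, Benjamini-Hochberg adjustment and a threshold of 0.05. The SE of a log2 fold change was calculated as its absolute value divided by the square root of the F statistic. With 3 libraries against 3, an exact two-sided permutation test cannot go below 0.1, so none was used. The labels do not say that replicates came from separate cultures, so p-values measure only the spread between these libraries. No pair of libraries agreed within sampling noise. The procedure was tested on simulated counts with a dispersion lower than those fitted here, so that test does not give the power of these comparisons. DESeq2 1.42.0, other scalings and filters, a replicate block, 1 fit of all 12 libraries and each library left out were alternatives.

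Libraries were divided at the largest gap in log2(CD34 CPM + 0.1) and then in log2 RUNX1T1 CPM, as a description. The named genes were the 8 members, for each member with 600 reads the 3 genes most like it, and from each of 7 pathway and 8 marker lists those highest or with a role in the text; the 124 listed genes were all matched, 3 through their Ensembl identifier under an older name. The genes around IRF8, the 4 motifs and LINC02132, FOXL1, COX4I1, EMC8 and MTHFSD were chosen after values were seen. The members and lists were chosen with earlier results of these data known. Some listed genes are not reported here by name. Promoter windows were from RefSeq. Tables and figures were made with Python 3.11.15, pandas 2.3.3 and matplotlib 3.10.9.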

Additional observations from a re-analysis of the deposited data

How the results depend on the processing

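Of the alternatives that kept all libraries, 133 of 147 values kept their direction and their side of the threshold, and of those that left out 1 library 167 of 191 did. DESeq2 called 1156 (Kasumi-1), 372 (SKNO-1) and 127 genes (difference between the lines), against 0 with edgeR, and 1 member in Kasumi-1, IRF8. Under total-count scaling, 2 members were higher in the CD34-silent than in the CD34-expressing libraries and 2 were higher with low RUNX1T1 in the CD34-silent libraries, IRF2 being the addition in both. For the difference between the lines, the log2 fold change of IRF2 was -0.0032 with DESeq2 and -0.0039 with its size factors in edgeR, against 0.03. That of IRF9 was -0.012 with DESeq2, -0.010 with its size factors and -0.032 with no filter, against 0.013. The cause of these changes was not tested.

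With each library left out in turn, 0 to 4250 genes were called in Kasumi-1 and 0 to 2535 in SKNO-1, and 0 or 1 member in each line. The nonzero counts came without Kasumi-1 siMM-mod replicate 3 and without SKNO-1 siRE-mod replicate 1, and that member was IRF8. The log2 fold change in SKNO-1 ranged from -0.16 to 0.38 for IRF1 (negative without siRE-mod replicate 3), from -0.0083 to 0.28 for IRF2 (negative without siMM-mod replicate 3), from -0.19 to 0.13 for IRF5 (positive without siRE-mod replicate 3) and from -0.073 to 0.50 for IRF7 (negative without siRE-mod replicate 1). For IRF7 in Kasumi-1 it ranged from -0.20 to 0.024 (positive without siMM-mod replicate 2). For the difference between the lines it ranged from -0.54 to 0.043 for IRF1, -0.15 to 0.19 for IRF2, -0.10 to 0.13 for IRF3 and -0.43 to 0.37 for IRF9. None of these passed the threshold in any of these fits. Without Kasumi-1 siMM-mod replicate 2, IRF8 fell below 600 reads in Kasumi-1 and was not tested.

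Deviations of same-numbered libraries from their group means correlated at -0.018, -0.27 and -0.013 in Kasumi-1 and at -0.13, -0.021 and -0.25 in SKNO-1. The labelled groups mix the CD34 and RUNX1T1 sets, which enter these deviations, so this check cannot show whether the replicate numbers paired the libraries. With the replicate block, 0 genes were called in each line and for their difference, as without it, and the difference for IRF9 was -0.023 on the log2 scale.

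IRF1, IRF2, IRF3, IRF5 and IRF7 each had at least 172 counts in every library, IRF9 had 19 to 121 and IRF4 at most 14, and no test of depth was made. The common dispersion in edgeR was 0.197 for Kasumi-1, 0.246 for SKNO-1 and 0.241 over both.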
